A study of Homo sapiens with 12 samples.

Results

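Chemokines are small secreted proteins that attract leukocytes along a concentration gradient by binding receptors coupled to G proteins. The genes described here are 8 chemokine genes that epithelial and tumour cells can express, CCL2, CXCL1, CXCL2, CXCL3, CXCL8, CXCL16, CCL20 and CX3CL1. They were taken by symbol from a list fixed with earlier results of these data known. All 8 were found among the 17818 genes of the deposited table. CXCL1, CXCL2, CXCL3 and CXCL8 act on the receptor CXCR2 and draw neutrophils. CCL2 acts on CCR2 and draws monocytes, and CCL20 acts on CCR6 of lymphocytes and dendritic cells. CXCL16 and CX3CL1 are made as membrane-bound proteins that bind CXCR6 and CX3CR1 and are released by shedding enzymes. In intestinal epithelium, transcription factors of the NF-kB family, switched on by bacterial products and inflammatory cytokines, are known drivers of several of these genes.

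The cells were SW480 and HCT116, established human colorectal cancer lines, each with a control vector (genotype NC) or with USP51 overexpressed (USP51-OE). USP51 is a deubiquitinase, a protease that takes ubiquitin off its substrates. There were 12 libraries, 3 in each of 4 groups, of total RNA from cells grown in serum-supplemented DMEM with no further treatment, so no cytokine stimulus was given. The promoter of the construct, the way it was introduced and whether each line is 1 clone are not stated in the labels. Every value below is the authors' mean of a group, since single-library columns could not be matched to the labels. A difference therefore comes with neither a spread between replicates nor a p-value. The means are named by line with the letter C, read here as control, or E, read as USP51 overexpression.

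The means summed to between 15506686 and 15920306 estimated counts per group. USP51 itself stood at 22.3 counts in SW480 controls and 1168 counts with USP51, and at 0 and 1706 counts in HCT116. Levels are given in TPM, a unit that divides by transcript length and so allows genes to be compared. Ratios are of counts per total count, with a 95% exact Clopper-Pearson interval conditional on the summed count of both means. It takes each mean as the count, so it is wider than the counting error of the 3 libraries behind the mean. Where it bears on a statement, the interval on the counts of the 3 libraries together (3 times the mean) is given too, and is called the summed interval. Such an interval covers counting error only, and it says nothing about the spread between cultures. PCR copies are not independent molecules, so even the counting error may be larger than the interval shows. The epithelial label was checked on 9 markers. EPCAM and the keratin genes KRT8, KRT18 and KRT19 were between 381.7 and 4989 TPM in every group, while CEACAM5 was at most 0.05 TPM, KRT20 at most 1.45 TPM and VIL1 at most 0.03 TPM in HCT116. The leukocyte gene PTPRC was at most 0.0333 TPM in every group.

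Promoter sequences are shown first, as a description of the members for which one was available. The RefSeq promoter table (GRCh38.p14) held 5 of the 8 genes, CXCL1, CXCL2, CXCL3, CXCL8 and CCL20. Printed are the 150 bases before the start site, 5′ to 3′ in the direction of transcription. Capitals mark matches to the NF-kB consensus of 10 letters or to the shorter motif GGANNTTCC, each searched on both strands.
CXCL1: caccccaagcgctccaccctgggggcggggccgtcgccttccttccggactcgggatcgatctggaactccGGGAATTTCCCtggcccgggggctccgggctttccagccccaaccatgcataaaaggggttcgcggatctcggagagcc
CXCL2: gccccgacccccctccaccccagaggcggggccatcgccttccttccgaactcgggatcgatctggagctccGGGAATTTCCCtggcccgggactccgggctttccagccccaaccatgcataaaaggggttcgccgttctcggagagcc
CXCL3: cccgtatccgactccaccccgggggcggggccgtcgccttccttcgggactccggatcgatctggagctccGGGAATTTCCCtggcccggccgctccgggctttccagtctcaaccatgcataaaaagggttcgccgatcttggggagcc
CXCL8: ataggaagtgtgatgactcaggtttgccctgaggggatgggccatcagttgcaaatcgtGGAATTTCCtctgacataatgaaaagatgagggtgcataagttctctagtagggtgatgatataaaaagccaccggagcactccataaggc
CCL20: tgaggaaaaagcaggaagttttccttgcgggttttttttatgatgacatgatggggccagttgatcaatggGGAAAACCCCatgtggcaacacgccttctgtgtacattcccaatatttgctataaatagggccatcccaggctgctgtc
The windows lie at chr4:73869243-73869392 on the plus strand, chr4:74099196-74099345 on the minus strand, chr4:74038690-74038839 on the minus strand, chr4:73740419-73740568 on the plus strand and chr2:227813692-227813841 on the plus strand.

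In CXCL1, CXCL2 and CXCL3 the same 11 letters were marked, with the consensus read on both strands and the shorter motif inside it. The consensus match on the plus strand began 79, 78 and 79 bases before the start. In CXCL8 the shorter motif alone was found, 91 to 83 bases before the start, beside an AP-1 motif (TGANTCA) 137 to 131 bases before it. In CCL20 the consensus alone was found, on the minus strand, 79 to 70 bases before the start. Over the 250 bases before the start, all 5 promoters held the consensus or the shorter motif, against 11.9% of 35116 promoters. Taken singly, the consensus was in 9.96% and the shorter motif in 3.84% of all promoters, and each was in 4 of the 5. The printed windows of CXCL1, CXCL2 and CXCL3 were 86.1% to 88.7% identical to each other in pairwise alignment, so these 3 promoters are near copies. A match of letters is a description and does not show that a factor bound there. Any relation of the motifs to the USP51 ratios was not tested. CCL2, CXCL16 and CX3CL1 had no promoter entry, and CCL20, whose SW480 interval included 1, held a match too.

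SW480 controls expressed all 8 genes, and HCT116 controls expressed CXCL16 at a comparable level and the other 7 far less. The summed level of the 8 was 267.0 TPM in SW480 controls and 41.6 TPM in HCT116 controls, and without CXCL16 it was 233.2 and 4.04 TPM. CCL2 alone made up 43.8% of the SW480 control sum.

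**Figure D1:**
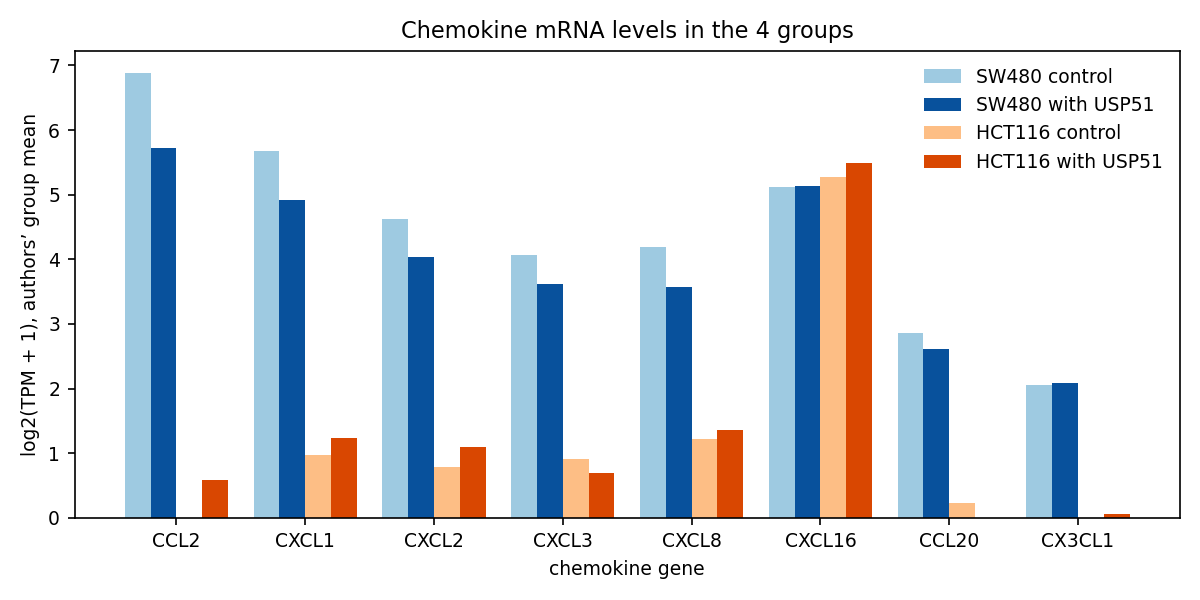
Bars give log2(TPM + 1) of the authors' mean for each of 8 chemokine genes (horizontal axis) in the 4 groups, with no error bar since a group is 1 mean. CXCL16 is the member that is high in all 4 groups, and the other 7 are higher in both SW480 groups than in both HCT116 groups.

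In SW480 controls the order of levels was CCL2 (117 TPM), CXCL1 (50.1 TPM), CXCL16 (33.8 TPM), CXCL2 (23.8 TPM), CXCL8 (17.2 TPM), CXCL3 (15.7 TPM), CCL20 (6.22 TPM) and CX3CL1 (3.17 TPM). Counting intervals of neighbours in that order overlapped only for CXCL8 and CXCL3. With USP51 CCL2 was still first at 52.0 TPM, and CXCL16, at 34.2 TPM, stood above CXCL1, at 29.4 TPM, and their intervals overlapped while their summed intervals did not. In HCT116 controls CXCL16 led at 37.6 TPM, followed by CXCL8 at 1.32 TPM. CXCL1, CXCL3, CXCL2 and CCL20 lay at 0.953, 0.877, 0.72 and 0.173 TPM, and from CXCL8 on the intervals of neighbours in this order overlapped, the summed ones too. CCL2 and CX3CL1 had 0 counts there.

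Between the control groups, 7 of the 8 genes were at least 1.5-fold lower in HCT116 than in SW480, where 22.6% of 13033 genes were. The same 7 were at least 2-fold lower, where 13.4% of genes were. Both shares refer to log2(TPM + 1) and to genes of at least 1 TPM in 1 of the 2 groups. CXCL1 had 469.7 counts in SW480 controls and 9 in HCT116 controls, a ratio of 0.0189 (0.00859 to 0.0362). CXCL2 had 208.3 and 6.33 counts (ratio 0.0300, 0.0103 to 0.0631). CXCL3 had 131 and 7.33 counts (ratio 0.0553, 0.0208 to 0.112). These 3 closely related genes of 1 cluster are also known as the GRO chemokine genes. CXCL8, which encodes interleukin-8, had 235.3 and 19 counts (ratio 0.0797, 0.0472 to 0.127). CCL2 had 565.3 counts against 0, at least 191-fold lower in HCT116 at a floor of 3 counts in the mean, and the exact bound was 155-fold. CX3CL1, the gene of fractalkine, had 100 counts against 0, at least 33.8-fold lower at that floor, with an exact bound of 26.9-fold. CCL20 had 36 counts against 1 (ratio 0.0274, 0.000676 to 0.163). CXCL16 stood apart at 679.7 and 757.7 counts, a ratio of 1.10 (0.991 to 1.22; summed interval 1.04 to 1.17). Its 2 listed transcripts kept the same order in both lines, at 28.8 and 4.97 TPM in SW480 and 31.8 and 5.85 TPM in HCT116 controls.

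With USP51 in SW480, CCL2 and the CXCR2 ligands were lower and the ratios of CXCL16 and CX3CL1 were close to 1. Of the 8 genes 6 lay below control, and the difference reached 1.5-fold in 4 of these, CCL2, CXCL1, CXCL2 and CXCL8. At least 1.5-fold lower were 0.879% of the 12175 genes of at least 1 TPM in 1 of the groups, and 0.534% were at least 1.5-fold higher. The 8 were chosen with earlier results of these data known, so this contrast is not independent evidence. The median log2(TPM + 1) ratio of the 8 was -0.52, beside -0.04 over all genes, of which 61.1% lay below control. On CPM (counts scaled to the total) with TMM factors these medians were -0.44 and 0.02. On CPM without factors or FPKM in place of TPM, 2 of the 4 kept a 1.5-fold difference, CCL2 and CXCL1, where 0.797% and 0.509% of genes did. With the pseudocount of 1 kept on these scales, CXCL2 and CXCL8 had log2 ratios between -0.53 and -0.56, short of 1.5-fold. On the ratio of counts, which has no pseudocount, CXCL2 was 1.51-fold lower and CXCL8 1.49-fold lower.

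CCL2, the monocyte attractant, showed the lowest ratio of the 8. Its mean was 565.3 counts (117 TPM) in SW480 controls and 262.7 counts (52.0 TPM) with USP51, a ratio of 0.456 (0.393 to 0.530). Its log2(TPM + 1) ratio of -1.16 was the 6th lowest of the 12175 genes. It was also the member past 2-fold, as were 0.123% of genes. Among the neutrophil attractants, CXCL1 stood at 469.7 and 289.3 counts, a ratio of 0.605 (0.519 to 0.700). CXCL2 stood at 208.3 and 141 counts (ratio 0.664, 0.533 to 0.828), and CXCL8 at 235.3 and 161 counts (ratio 0.671, 0.547 to 0.825). CXCL3 stood at 131 and 98.7 counts (ratio 0.739, 0.565 to 0.970) and fell short of 1.5-fold, with a log2(TPM + 1) ratio of -0.44. The 4 ligands of CXCR2 summed to 106.8 TPM in controls and 66.9 TPM under USP51. The differences between the ratios of these 4 were not tested. The interval of CCL2 overlapped that of CXCL1 but none of the other 3, and its summed interval, 0.419 to 0.497, lay below that of CXCL1, 0.555 to 0.658.

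**Figure D2:**
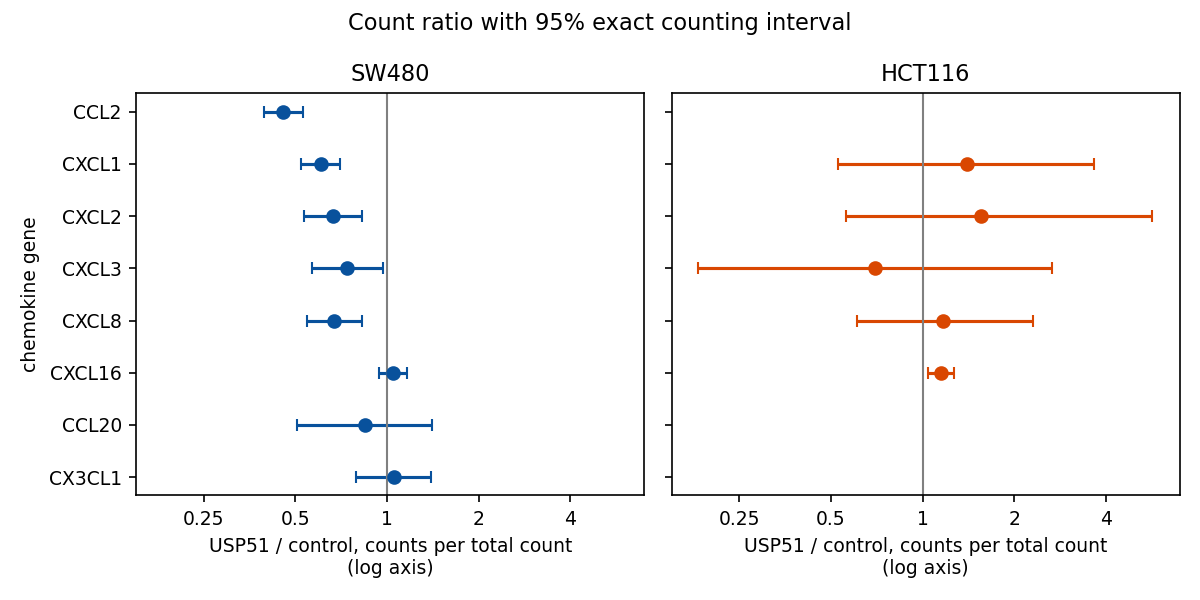
Points give the ratio of counts per total count, USP51 over control (log axis), and bars its 95% exact counting interval on the mean counts, in SW480 (left) and HCT116 (right). In SW480 the intervals of CCL2, CXCL1, CXCL2, CXCL3 and CXCL8 lie below 1. In HCT116 that of CXCL16 lies above 1, and CCL2, CCL20 and CX3CL1 are not drawn since both means were at or under 3 counts.

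CCL20, the CCR6 ligand, had 36 and 31 counts in SW480, a ratio of 0.845 (0.506 to 1.41; summed interval 0.634 to 1.13), too few to tell a 1.5-fold lower level from none. Its 2 listed transcripts were at 3.92 and 2.30 TPM in controls and at 2.68 and 2.43 TPM under USP51. For the membrane-bound members the interval included 1, and so did the summed one. CXCL16 stood at 679.7 and 723.7 counts, a ratio of 1.05 (0.940 to 1.16), and CX3CL1 at 100 and 107 counts, a ratio of 1.05 (0.792 to 1.39). The interval of CXCL16 lies above those of CCL2, CXCL1, CXCL2 and CXCL8. For CXCL8, nearly all counts were on 1 of its 2 listed transcripts, 230.9 and 160.1, and the other had 4.40 and 0.93. The other was at 1.07 and 0.21 TPM, against 16.2 and 10.7 TPM for the main one. The TPM sum behind the 1.5-fold difference of CXCL8 thus includes a transcript near the floor.

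CXCL1, CXCL2 and CXCL3 are paralogs, and reads could pass between them. Of the 50-base windows of the GENCODE 29 transcripts, 5.73% of CXCL1, 9.24% of CXCL2 and 5.26% of CXCL3 occurred letter for letter in another of the 3. No window of the transcripts of CCL2 or CCL20, or of the main transcript of CXCL8, matched another gene. For CXCL16, 0.55% of the windows of its longer transcript occurred in other genes. The minor transcript of CXCL8 and those of CX3CL1 were not among the transcripts searched. The labels state neither the read length nor how reads matching more than 1 gene were placed, so the values of the 3 paralogs are less certain than those of CCL2 and CXCL8.

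CXCL8, CXCL1, CXCL3 and CXCL2 lie in that order in a stretch of 358.6 kb on chromosome 4 (73740569 to 74099195, GRCh38). The table held 3 other genes of that stretch, all chemokine genes. CXCL6 was at 0.68 TPM in control SW480 and 0.387 TPM under USP51, CXCL5 at 0.267 and 0.123 TPM, and the platelet chemokine gene PPBP at 0 and 0.03 TPM. CXCL5 and CXCL6 had 9 counts or fewer and intervals that included 1, and none of the 3 had a count in HCT116. Of the 7 genes analysed in the stretch, the 4 members were thus the ones above 1 TPM in SW480. The other members lie elsewhere, CCL2 on chromosome 17 (34255285 to 34257203), CXCL16 on chromosome 17 (4733533 to 4739928), CCL20 on chromosome 2 (227813842 to 227817556) and CX3CL1 on chromosome 16 (57372490 to 57385044).

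In HCT116, 4 of the 8 genes reached 1 TPM, and none of the 4 differed by 1.5-fold with USP51 on log2(TPM + 1), a scale that understates differences near 1 TPM. There, 1.96% of 12393 genes were at least 1.5-fold higher and 0.145% at least 1.5-fold lower. All 4 lay above control, with a median log2(TPM + 1) ratio of 0.24 beside 0.04 over all genes, of which 39.2% lay below control. On CPM with TMM factors these medians were 0.17 and -0.01. CXCL1 and CXCL2 passed the filter of 1 TPM only through their level with USP51. CXCL3, at 0.877 and 0.617 TPM, did not pass, so the shared direction is partly set by the filter. CXCL16 stood at 757.7 and 853 counts (37.6 and 43.8 TPM), a ratio of 1.15 (1.04 to 1.27), and 83.7% of the genes had a lower log2 ratio. CXCL1 had 9 and 12.3 counts (ratio 1.40, 0.526 to 3.66), CXCL2 had 6.33 and 9.67 (ratio 1.56, 0.560 to 5.69) and CXCL8 had 19 and 21.7 (ratio 1.16, 0.610 to 2.31). These 3 intervals include 1, and so do the summed ones. On the ratio of counts CXCL2 was thus past 1.5-fold, at 0.72 and 1.14 TPM. Of the members below 1 TPM, CXCL3 had 7.33 and 5 counts (ratio 0.696, 0.182 to 2.67). CCL2 had 0 and 2.33, CCL20 had 1 and 0 and CX3CL1 had 0 and 1.33, so no ratio is given.

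**Figure D3:**
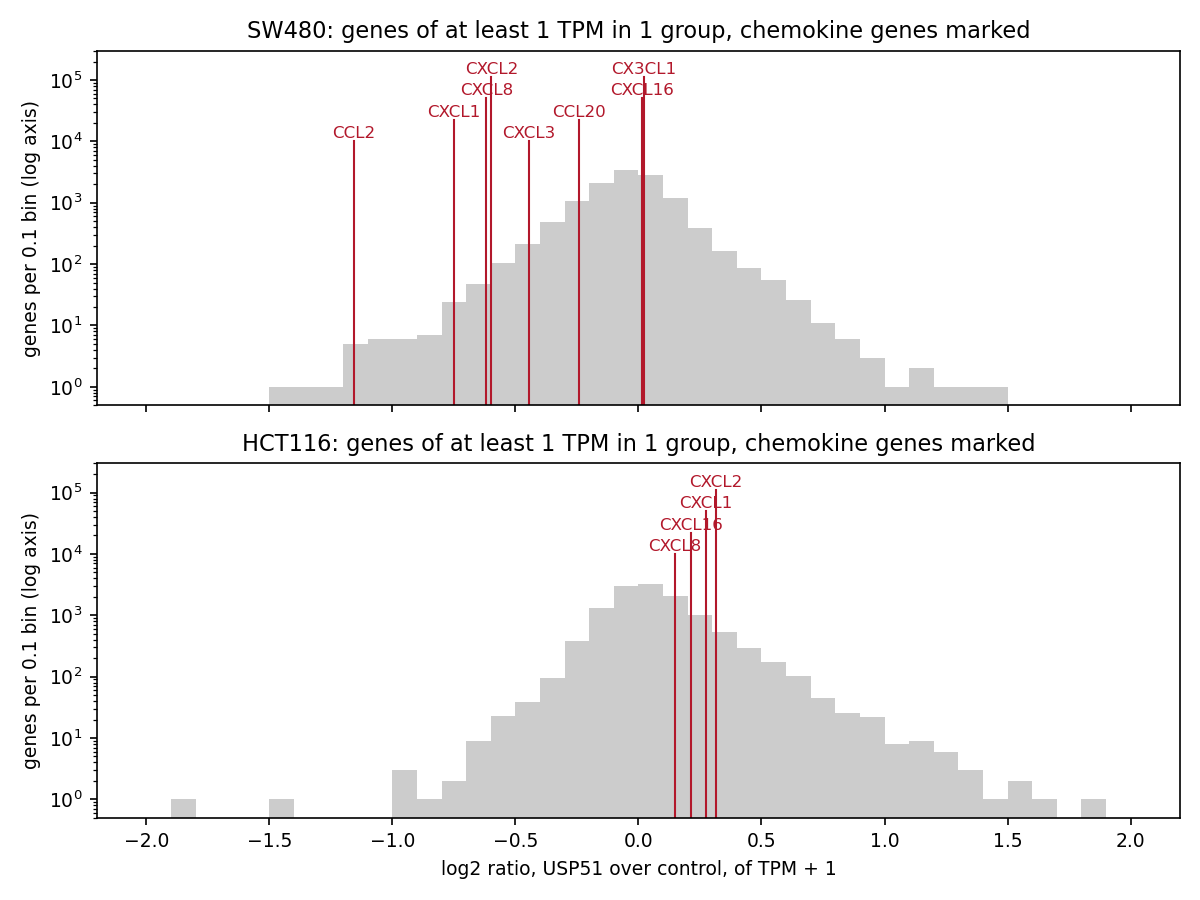
Grey bars count genes per bin of the log2 ratio of TPM + 1, USP51 over control (horizontal axis, from -2 to 2; vertical log axis), in SW480 (top) and HCT116 (bottom), and red lines mark the chemokine genes of at least 1 TPM. Outside the range drawn lie 4 genes in SW480 and 2 in HCT116. In SW480 CCL2, CXCL1, CXCL8 and CXCL2 lie in the lower tail, from -1.16 to -0.60, and in HCT116 the 4 lines lie between 0.15 and 0.32.

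The log2(TPM + 1) ratio was higher in HCT116 than in SW480 for each of the 4 members that passed the 1 TPM filter in both lines. CXCL1 and CXCL2 passed it in HCT116 only with USP51. The difference was 1.02 for CXCL1, 0.91 for CXCL2, 0.77 for CXCL8 and 0.20 for CXCL16. This difference has no test. The HCT116 intervals of CXCL1, CXCL2 and CXCL8 on the mean counts, of 6.33 to 21.7, include the ratios seen in SW480. The summed intervals in HCT116 are narrower, at 0.829 to 2.39 for CXCL1, 0.844 to 2.94 for CXCL2 and 0.803 to 1.69 for CXCL8, and lie above the SW480 summed intervals of the same genes, 0.555 to 0.658, 0.586 to 0.753 and 0.597 to 0.755. They cover counting error alone, so the spread between cultures could still be larger than these gaps. For CXCL16 the summed intervals were 1.09 to 1.22 in HCT116 and 0.983 to 1.11 in SW480, and they overlapped. CXCL3, below 1 TPM in HCT116, had a difference of 0.23. Its summed intervals, 0.336 to 1.40 in HCT116 and 0.634 to 0.862 in SW480, overlapped too.

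Other chemokine genes were few. Of a list of 35 further chemokine genes 22 were analysed, and 4 reached 1 TPM in SW480. CXCL14, an epithelial chemokine, was at 12.4 TPM in controls and 7.64 TPM under USP51 (ratio 0.633, 0.498 to 0.802), and had 0 counts in both HCT116 groups. CCL28, a mucosal chemokine, was at 3.04 and 3.07 TPM, CCL7 at 2.34 and 2.12 TPM, and CCL24 at 1.24 and 2.13 TPM (ratio 1.80, 0.935 to 3.51). The median log2 ratio of the 4 was -0.04. In HCT116, CCL5 (1.27 and 1.14 TPM) and CCL26 (1.12 and 1.82 TPM) reached 1 TPM.

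The matching receptors other than CXCR6 were at or below 0.28 TPM. CXCR2 was at 0.24 and 0.28 TPM in SW480 controls and with USP51 and at most 0.0867 TPM in HCT116, and CXCR1, the further receptor of CXCL8, was at most 0.137 TPM. CCR2 was at most 0.0133 TPM, CCR6 at most 0.183 TPM and CX3CR1 at most 0.133 TPM in every group. CXCR6, the receptor of CXCL16, was the one above 1 TPM, in SW480 alone, at 3.69 TPM in controls and 2.26 TPM under USP51 (ratio 0.625, 0.414 to 0.933). Of 20 receptor genes analysed, the others above 1 TPM were CXCR4 and CCR7, receptors of ligands outside the 8. In SW480 CXCR4 stood at 47.7 and 52.5 TPM, and CCR7 at 15.7 and 18.1 TPM. In HCT116 CXCR4 was at 0.567 and 2.04 TPM, on 8.33 and 28.7 counts (ratio 3.51, 1.65 to 9.36), and reached 1 TPM only with USP51. The shedding enzyme genes ADAM10 and ADAM17, whose products cut CXCL16 and CX3CL1 from the membrane, were expressed in both lines. ADAM10 was at 22.0 and 20.1 TPM in SW480 and 48.8 and 56.6 TPM in HCT116, and ADAM17 between 15.9 and 18.2 TPM in all 4 groups. MMP14, on the same list of shedding and trimming enzymes, was at 27.8 and 19.3 TPM in SW480 (ratio 0.718, 0.652 to 0.791). Of that list 3 genes reached 1 TPM in SW480 and all 3 lay below control, where 61.1% of all genes did. In HCT116 2 of 5 lay below control, beside 39.2% of all genes.

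Other NF-kB targets were mostly lower with USP51 in SW480. Of a list of 23 such targets 17 reached 1 TPM, of which 15 lay below control on log2(TPM + 1), 4 by at least 1.5-fold and none 1.5-fold above, with a median log2 ratio of -0.38. Over all genes 61.1% lay below control and 0.879% by at least 1.5-fold on that scale. On the ratio of counts TNF, named after its values were seen, was also past 1.5-fold, at 4.18 and 2.47 TPM (ratio 0.608, 0.397 to 0.932). The 4 were the acute-phase genes SAA1 and SAA2, the cytokine gene LTB and the apoptosis inhibitor gene BIRC3. SAA1 was at 1352 and 623.5 TPM (ratio 0.471, 0.444 to 0.50), and SAA1 and SAA2 are near-identical copies that can exchange reads. BIRC3 was at 7.42 and 4.30 TPM (ratio 0.587, 0.507 to 0.678). These genes were listed with earlier results of these data known, so their direction is not independent evidence. In HCT116, where 39.2% of all genes lay below control, 2 of 12 did and 10 exceeded it, and those past 1.5-fold on log2(TPM + 1) were IL32 (1.14 and 3.73 TPM; ratio 3.12, 1.24 to 9.89) and LCN2 (5.66 and 10.7 TPM; ratio 1.86, 1.20 to 2.99). PTGS2 was past 1.5-fold on the ratio of counts alone, at 0.74 and 1.24 TPM (ratio 1.65, 1.04 to 2.61). It reached 1 TPM, and so entered the 12, only with USP51. The median there was 0.21.

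Among the signalling components of the NF-kB pathway itself, no gene reached 1.5-fold on log2(TPM + 1) in either line. Of 24 signalling components of at least 1 TPM in SW480, 16 lay below control, a share near the 61.1% of all genes, with a median log2 ratio of -0.06. With CPM in place of TPM 10 or 11 of the 24 lay below control, with a median of 0.02 to 0.03. With FPKM 13 did, with a median of -0.01. The median over all genes moved as well, from -0.04 on TPM to between -0.001 and 0.02 on these scales. The share of all genes below control was not counted there. In HCT116 10 of 25 lay below control, beside 39.2% of all genes (median 0.06). RELA, the main activating subunit, was at 80.7 and 78.6 TPM in SW480 (ratio 1.01, 0.946 to 1.08), and in HCT116 at 77.1 and 79.1 TPM. The largest difference in SW480 was that of IL1RAP, the accessory chain of the interleukin-1 receptor, at 3.29 and 2.05 TPM (ratio 0.643, 0.424 to 0.942), past 1.5-fold on the ratio of counts. IL1R1, which binds the cytokine, was at 0.04 and 0.11 TPM in SW480. MYD88, the adaptor of interleukin-1 and Toll-like receptors, was at 36.0 and 30.2 TPM (ratio 0.876, 0.793 to 0.968). Of 9 inhibitors and regulators in SW480, 6 lay below control, again near the share of all genes, among them NFKBIA, the inhibitor that is itself an NF-kB target, at 75.0 and 60.5 TPM (ratio 0.832, 0.759 to 0.913). In HCT116 5 of 10 lay on each side (median 0.01, and -0.04 to -0.01 with CPM or FPKM), and TNIP1 differed most, at 27.2 and 36.9 TPM (ratio 1.34, 1.21 to 1.48).

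**Figure D4:**
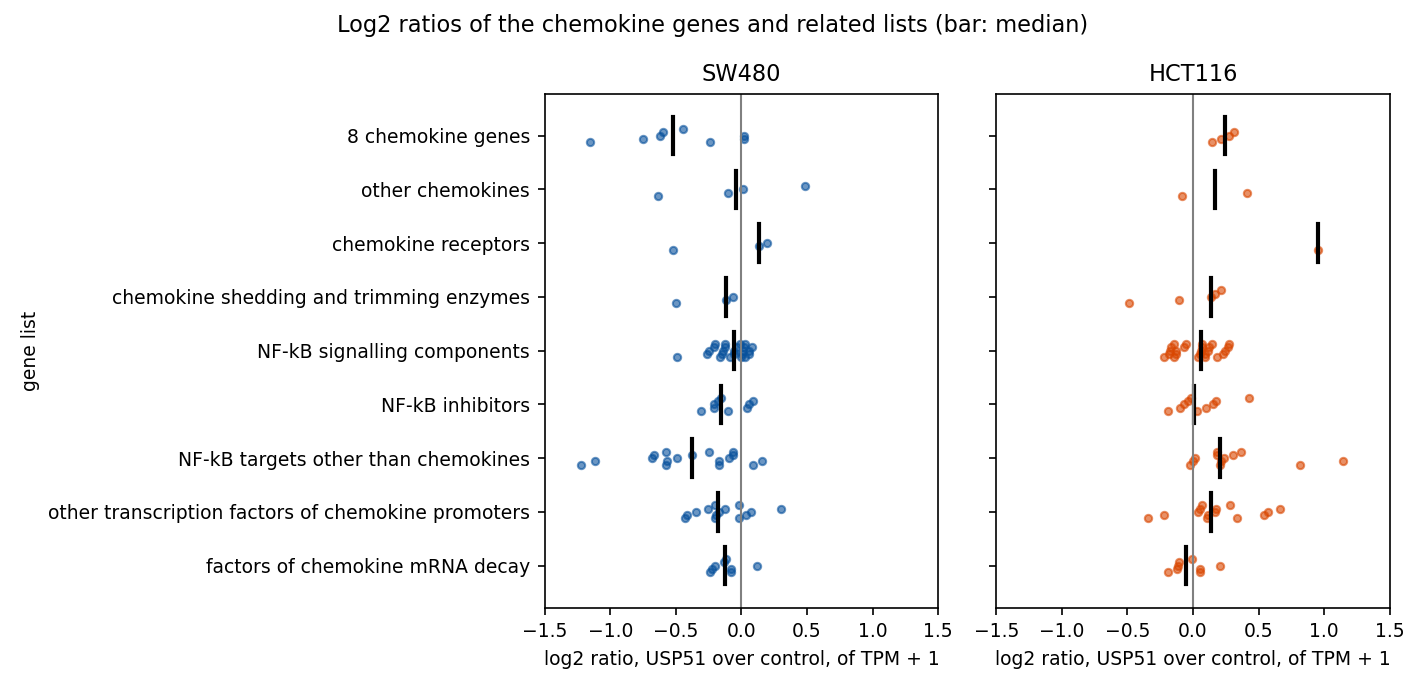
Points are genes of at least 1 TPM in 1 of the groups compared, placed by the log2 ratio of TPM + 1, USP51 over control, for the 8 chemokine genes and 8 related lists, and black bars are list medians. In SW480 (left) the chemokine genes and other NF-kB targets have the lowest medians, -0.52 and -0.38, and in HCT116 (right) both medians are above 0, at 0.24 and 0.21. Of the genes behind these HCT116 medians, CXCL1, CXCL2 and PTGS2 reached 1 TPM only with USP51.

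Transcription factors that act beside NF-kB at chemokine promoters lay below control in 11 of 14 cases in SW480, beside 61.1% of all genes, and none by 1.5-fold on log2(TPM + 1), with a median of -0.18. With CPM or FPKM 9 of the 14 did, with medians between -0.14 and -0.10, beside all-gene medians between -0.001 and 0.02 on these scales. FOSL1, an AP-1 subunit, was at 317.1 and 235.3 TPM (ratio 0.766, 0.733 to 0.801), and EGR1 at 577.3 and 433.6 TPM (ratio 0.773, 0.756 to 0.791). CEBPD went the other way, at 114.5 and 141.0 TPM (ratio 1.27, 1.18 to 1.37). In HCT116 2 of 14 lay below control, beside 39.2% of all genes (median 0.14), and only ATF3 passed 1.5-fold, at 22.1 and 35.6 TPM (ratio 1.58, 1.40 to 1.79). FOSL1 was below control there too, at 145.6 and 114.8 TPM. Factors that control the decay of chemokine messenger RNA differed by less than 1.5-fold in both lines, with medians of -0.13 over 8 genes in SW480 and -0.06 over 8 in HCT116. ZC3H12A, the nuclease regnase-1, was at 27.7 and 23.3 TPM in SW480 and 11.4 and 9.88 TPM in HCT116. ZFP36, which binds AU-rich elements, was at 87.5 and 79.6 TPM in SW480, and in HCT116 at 243.5 and 225.7 TPM.

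All other genes were then ranked by likeness to CCL2, CXCL1 and CXCL8, as the distance between the 4 group values of log2(TPM + 1) after each gene's mean was subtracted. The 4 points are means of groups, and the gap between the lines dominates the distance. Among 10938 genes of at least 5 TPM in 1 group, CD74 lay nearest to CCL2 at a distance of 0.56, with 99.1 and 62.1 TPM in SW480 and 0.427 and 0.507 TPM in HCT116, followed by TGM2 (0.71) and TM4SF1 (0.73). Nearest to CXCL1 were LY6G6D (0.16), CPLX2 (0.18) and CSF2 (0.23), the granulocyte-macrophage growth factor gene, at 39.8 and 26.5 TPM in SW480 and 0.437 and 0.777 TPM in HCT116. Nearest to CXCL8 were CACNG6 (0.11), IL24 (0.14) and SLC35G2 (0.15). The distances from CCL2 were the larger ones.

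Markers of other cell types were low in all groups. Of 8 leukocyte and myeloid markers analysed, 1 or 2 reached 1 TPM in each group, with summed levels of 6.27 TPM in SW480 controls, 7.39 TPM in SW480 with USP51 and 8.14 to 8.45 TPM in HCT116. CD68 made up most of each sum. The 9 fibroblast markers summed to 10.4 and 7.97 TPM in SW480 and to 14.8 and 20.9 TPM in HCT116, mostly COL1A1 and ACTA2, while PDGFRA and FAP were at most 0.0233 TPM. The 6 lymphocyte markers summed to at most 2.13 TPM and the 5 endothelial markers to at most 0.417 TPM. The epithelial marker VIL1 was at 7.55 TPM in control SW480 and 12.5 TPM under USP51 (ratio 1.70, 1.52 to 1.91), the marker of that list past 1.5-fold, and its part in the chemokine values was not tested. In bulk RNA, fewer expressing cells and less RNA per cell cannot be told apart.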

How the data were processed

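RNA of 2 colorectal cancer lines carrying a control vector or overexpressing USP51 was sequenced on a BGISEQ instrument, per the labels' protocols. TopHat, DESeq 1.32.0 and the build hg38 are named in the submitters' processing notes, and their roles, the counting tool and the strand setting are not stated there. The deposited table gives, per the file headers, the authors' group means of estimated counts, of TPM (scaled by the authors to one total) and of FPKM per RefSeq transcript. Another 36 columns hold single libraries under codes that match no label and were not used, so the planned edgeR tests were not run.

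Transcripts were summed per gene. RefSeq symbols (GRCh38.p14) matched 17672 of 17818 gene identifiers. Log2 ratios used TPM with a pseudocount of 1, a scale that understates differences of low genes, for genes of at least 1 TPM in 1 of the 2 groups. A difference of 1.5-fold was counted, a criterion of size with no test behind it. Ratios of counts are between unrounded means, and their 95% exact intervals (scipy 1.17.1) take the means rounded to whole counts, or 3 times the mean for summed intervals. The floor was 3 counts in the mean. The interval code was tested on simulated data. The letters C and E were read as control and USP51 overexpression, and every direction between them rests on that reading.

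Members and lists were chosen with earlier results of these data known. Genes named are the 8 members, USP51, up to 4 genes per list with the largest log2 ratio in each line, and the 3 nearest in pattern to CCL2, CXCL1 and CXCL8. RELA, IL1R1, the listed receptors of the members, ADAM17, ZFP36, CXCL5, CXCL6, PPBP and the cell markers were named for their role. Alternatives were other pseudocounts, FPKM, CPM without factors and with TMM, RLE or upper-quartile factors (edgeR 4.0.16, R 4.3.3), curated transcripts, other filters and 2-fold.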

Additional observations from a re-analysis of the deposited data

How the results depend on the processing

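None of the 24 log2 ratios and differences of single chemokine genes changed sign under the alternatives that gave a value. Their size depended on the processing most between the controls. There the log2 ratio ranged from -10.2 to -5.22 for CCL2, from -5.03 to -1.65 for CX3CL1 and from -4.53 to -1.64 for CCL20. These genes had 1 count or fewer in the HCT116 control mean. The count of the 8 genes at least 1.5-fold lower with USP51 in SW480 was 4, and it was 2 with FPKM and 2 with CPM, whether without factors or with TMM, RLE or upper-quartile factors. FPKM and CPM were used with the pseudocount of 1. The count was 1 at 2-fold, and 4 under the alternatives of pseudocount, filter and curated transcripts. In SW480 the log2 ratio ranged over the alternatives from -1.17 to -1.07 for CCL2, from -0.77 to -0.68 for CXCL1, from -0.63 to -0.53 for CXCL2 and from -0.66 to -0.52 for CXCL8. In HCT116 the count at least 1.5-fold higher was 1 with a pseudocount of 0.1, which was CXCL2 at a log2 ratio of 0.60 on 6.33 and 9.67 counts, and 0 otherwise. The count of genes with a higher ratio in HCT116 than in SW480 was 2 with a filter of 20 counts and 8 without a filter, as the number of genes compared changed from 4 to those numbers. No paired analysis was possible because the single-library columns carry codes that match no label, and leaving out 1 library at a time was not run for the same reason. With the counts summed over 3 libraries, an alternative added after seeing the data, the counting interval of the ratio left out 1 for 5 of the chemokine genes in SW480, for 1 in HCT116 and for 8 between the controls, against 5, 1 and 7 on the means. Low counts limit HCT116 most, where 7 of the 8 genes had 21.7 counts or fewer in each mean, at total counts like those of SW480.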
